A study of Neurospora crassa with 22 samples.

Results

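The genes described here encode the core histones of *Neurospora crassa* and a pair of their variants. They were chosen by gene identity, and they are 7 of the 9730 genes in the expression table. They are *hH3* (NCU01635), *hH4-1* (NCU01634), *hH4-2* (NCU00212), *hH2A* (NCU02437), *hH2B* (NCU02435), *hH2Az* (NCU05347) and *cenH3* (NCU00145, listed under the symbol *hH3v* in the gene table). RNA-seq was done on 3 libraries of a wild-type strain and 3 libraries of an *hH1* mutant, where *hH1* is the gene for the linker histone H1. The study's methods describe knockout strains of *hH1* from a gene knockout project. Its list of strains holds a *mat A* knockout, another *hH1* mutant made by repeat-induced point mutation, and wild types of both mating types. Conidia of both strains, the asexual spores of this filamentous fungus, had been grown for 5 hr in Vogel's minimal medium with glucose. The tissue label of every library is mycelium. The genotype labels give only wildtype and hH1, so the allele and strain numbers behind the RNA are not stated, and no label says that the libraries of a strain came from separate cultures. The p-values below then measure only the spread between these libraries, which may be technical.

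In the nucleosome, DNA is wrapped around an octamer that holds a pair each of H2A, H2B, H3 and H4, and linker histone H1 binds where the DNA enters and leaves it. In many eukaryotes the mRNAs of the core histones are made mainly while DNA is replicated, so that new nucleosomes can be built on new DNA, whereas variants are put in by their own assembly factors at other times. H2A.Z replaces H2A in nucleosomes near promoters and at other sites, and the centromeric H3 variant, called CENP-A in animals, marks the chromatin on which the kinetochore forms. Most of the core histones of *N. crassa* come from single genes, in contrast to the large histone gene families of animals.

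Values are FPKM, fragments scaled to the length of the transcript and to the number of mapped fragments, so that genes can be compared with one another. The transcripts of a gene were summed, and libraries are numbered by their order in the table within each strain, because its columns do not carry the replicate numbers of the sample labels. The FPKM of all genes summed to between 551935 and 572043 in wild-type libraries and between 626049 and 639266 in mutant libraries. From the steps of 9 to 24 low values in a library, the depth was roughly estimated at between 5720000 and 11190000 fragments. The estimate holds if the scaling used the total of each library. As a check of the labels, *hH1* (NCU06863) stood at 266, 327 and 293 FPKM in wild-type libraries, against 9.35, 2.06 and 3.22 FPKM in mutant libraries. The mating type gene *matA-1* (NCU01958) had a listed value of 0 in every wild-type library, against 2.60, 1.75 and 3.83 FPKM in mutant ones. It passed the filter on low values only through the mutant libraries, so its test is not given. These values differ with the strain, and its part in the results was not tested. A listed 0 need not mean absence, since *gpd-1* (NCU01528), the gene for a glycolytic enzyme, was also listed at 0 in every wild-type library, against 37393, 29444 and 30211 FPKM in mutant ones. Of 5 conidiation genes, *con-13* was listed at 0 in all 6 libraries, *con-6* and *con-10* did not exceed 1.65 FPKM in any, and *con-8* and *eas* were between 3.35 and 12.1 FPKM. Of the 2 conidiation genes tested, 0 passed the limma test, and 0 had an unadjusted p under 0.05, against 4.99% and 25.9% of all tested genes. So few genes cannot be set against these shares.

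The core histone genes were all far above the variants in level. *hH3*, which encodes H3, was the highest, at 1815, 1966 and 1710 FPKM in wild-type libraries, a mean of 1830 ± 129 FPKM (SD, n = 3), and it ranked between 32 and 38 among all genes in every library. *hH4-1* was next, at 1337, 1216 and 1339 FPKM, a mean of 1297 ± 70.5 FPKM (SD, n = 3). *hH2B* followed, at 1020, 1345 and 1318 FPKM, a mean of 1228 ± 180 FPKM (SD, n = 3). In the wild type, the libraries of *hH4-1* and *hH2B* overlapped, so that these neighbours in the order did not differ beyond their spread. In the mutant, by contrast, each *hH2B* value was above each *hH4-1* value, since *hH2B* lay between 1508 and 1632 FPKM and *hH4-1* between 1223 and 1295 FPKM.

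*hH2A* was lower than its partner *hH2B* in each library. It stood at 501, 636 and 638 FPKM in wild-type libraries, a mean of 592 ± 78.4 FPKM (SD, n = 3). *hH4-2*, the second gene for H4, was the lowest of the core histone genes, at 228, 262 and 315 FPKM, a mean of 268 ± 43.6 FPKM (SD, n = 3). Neither of these groups of wild-type values overlapped that of its neighbours in the order.

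The variant genes were lower by more than an order of magnitude than *hH3*. *hH2Az*, which encodes H2A.Z, stood at 28.7, 32.7 and 27.2 FPKM in wild-type libraries, a mean of 29.5 ± 2.86 FPKM (SD, n = 3). *cenH3* stood at 25.9, 24.3 and 31.0 FPKM, a mean of 27.1 ± 3.51 FPKM (SD, n = 3). The values of this pair overlapped in the wild type and in the mutant, so their order is not settled by these data. Even so, neither variant fell below rank 2759 in any library, or 28.4% of the way down the list of 9730 genes. A further gene with a histone symbol, *hH4v* (NCU04338), which was not among the 7, stood at 6.21, 6.97 and 7.45 FPKM in wild-type libraries, against 7.36, 6.85 and 7.58 FPKM in mutant libraries.

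**Figure D1:**
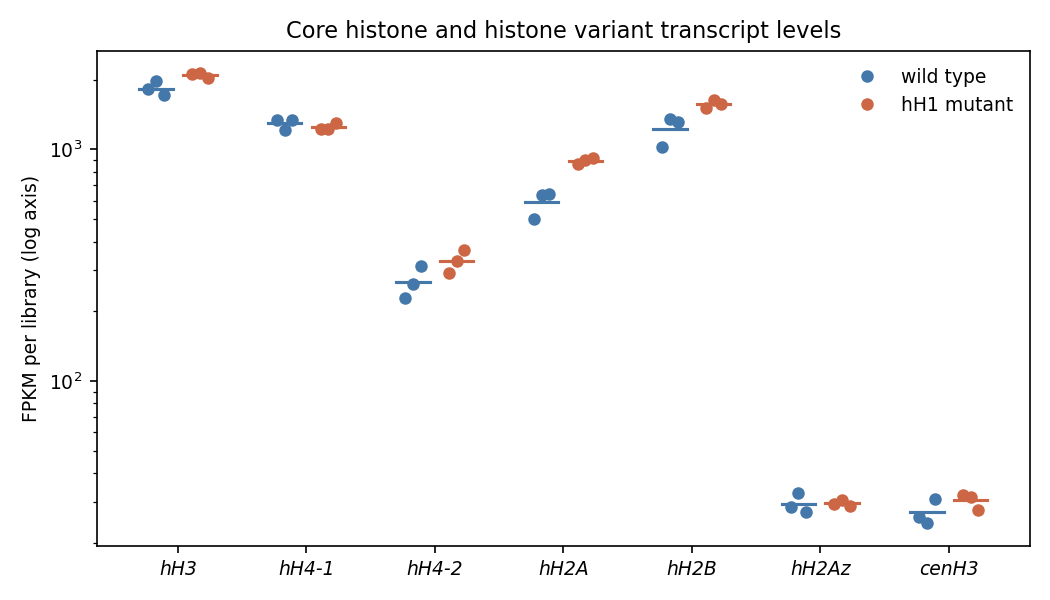
FPKM of the 7 histone genes in each library on a log axis, with wild-type libraries in blue and *hH1* mutant libraries in orange, each point 1 library and each line the mean of 3. The 5 core histone genes lie between 228 and 2131 FPKM and *hH2Az* and *cenH3* between 24.3 and 32.7 FPKM, and the strains do not overlap for *hH3*, *hH2A* and *hH2B*.

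The genes of the H3-H4 and H2A-H2B pairs lie beside each other in the NC12 assembly. *hH3* (linkage group II, chrII:2874241-2875647) and *hH4-1* (chrII:2877350-2878740) are 1702 bases apart, with no annotated gene between them. *hH2A* (linkage group VII, chrVII:2487192-2488439) and *hH2B* (chrVII:2490608-2492335) are 2168 bases apart, and the space between them holds a noncoding RNA gene, NCU14153, that was not in the table, and NCU02436, which was listed at 0 in all 6 libraries. *hH4-2* (chrIII:3024058-3025897) and *cenH3* (chrIII:2783014-2784705) are both on linkage group III but not neighbours, and *hH2Az* (chrII:1387651-1392823) is not a neighbour of *hH3*.

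The comparison of strains asked whether the genes for the core particle are expressed at another level when the linker histone is missing. Among the histone genes, the clearest difference was in *hH2A*, which was about 1.51-fold higher in the mutant. *hH2A* stood at 862, 896 and 920 FPKM in mutant libraries, a mean of 893 ± 29.1 FPKM (SD, n = 3), against 592 FPKM in wild-type libraries. Each of the 3 mutant libraries was above each wild-type library. In such bulk samples, more cells that express a gene and more of its RNA per cell cannot be told apart. On the log2(FPKM + 1) scale the change was 0.60, with a standard error of 0.12, a 95% interval from 0.33 to 0.87 and an adjusted p of 0.0265 (limma, Benjamini-Hochberg over 7208 tested genes). It was the 1 histone gene of 7 that passed this test (14.3%), where 4.99% of all tested genes did so and 1.73% did so as higher in the mutant, and a single gene is too few to set these shares against each other. In the other direction 0 of 7 passed, against 3.26% of tested genes. The call of *hH2A* was kept in 6 of 10 alternative settings and in 2 of the 6 fits that each left out 1 library. Of the 6 settings, 1 was added after the data were seen, centring together with removal of the slope with gene length. Without a filter on low values, the call was only just kept (adjusted p = 0.0498 from limma). The change was 0.49 (adjusted p = 0.107 from limma) without wild-type library 1, which had the lowest *hH2A* value, and the adjusted p was 0.0565 without wild-type library 2, 0.0758 without mutant library 2 and 0.0784 without mutant library 3. With each library centred on its median, the change was 0.71 (adjusted p = 0.0141), and 5.84% of tested genes passed, 3.9% as higher. After quantile normalization it was 0.45 (adjusted p = 0.0552), where 4.59% passed, 2.19% as higher. Across all of these settings and fits the change stayed above 0, and the adjusted p from limma lay between 0.0141 and 0.107.

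**Figure D2:**
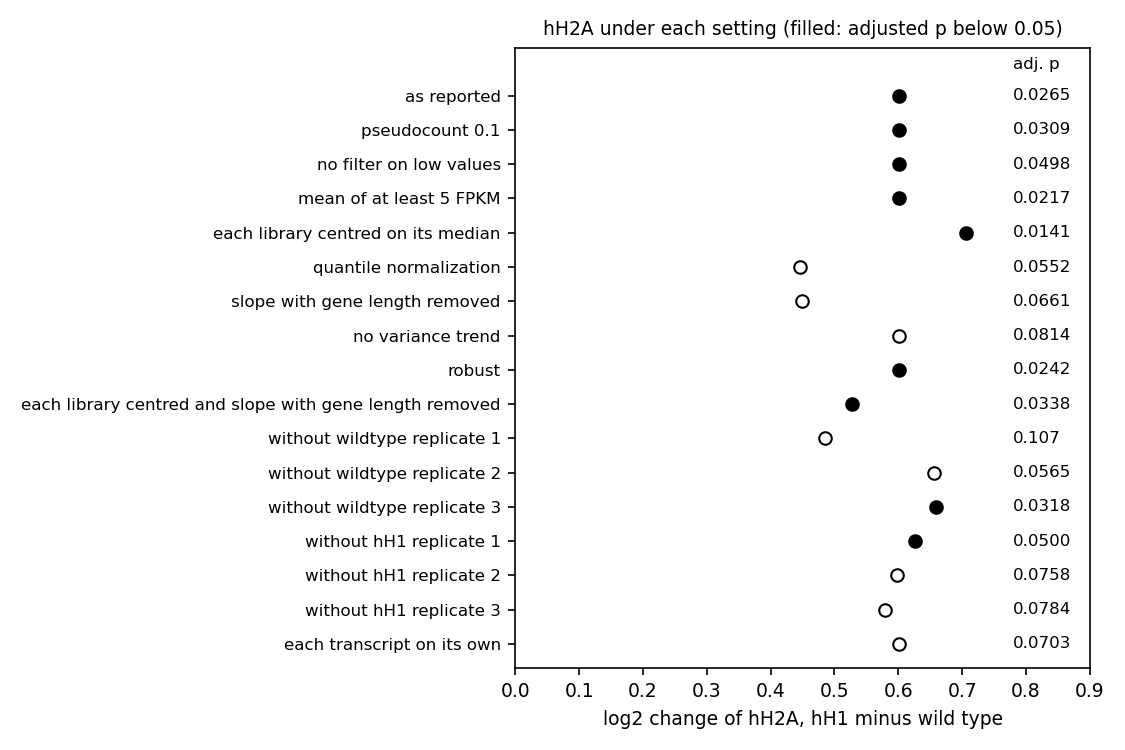
Log2 change of *hH2A* (mutant minus wild type, on the x axis) in the reported fit and in each alternative setting or fit without 1 library, with the adjusted p from limma printed at the right; filled points are below 0.05. All values lie between 0.45 and 0.71, and the adjusted p moves from 0.0141 to 0.107.

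*hH2B* was also higher in the mutant libraries, by a smaller amount that did not pass the test. It stood at 1508, 1632 and 1570 FPKM in mutant libraries, a mean of 1570 ± 61.8 FPKM (SD, n = 3), and each mutant library was above each wild-type library. The change was 0.36 on the log2 scale, with a standard error of 0.13, a 95% interval from 0.079 to 0.65 and an adjusted p of 0.115 (limma). An unadjusted p under 0.05 from limma was found for *hH2A* and *hH2B*, 0.000577 and 0.0173. Among all tested genes 25.9% had one in either direction and 9.28% as higher, and the histone genes are too few to set against these shares. In relation to the other wild-type libraries, library 1 was low for both genes of the H2A-H2B pair, and without it the change of *hH2B* was 0.24. After quantile normalization it was 0.21.

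*hH3* was also without overlap between the strains, at 2117, 2131 and 2023 FPKM in mutant libraries, a mean of 2090 ± 58.4 FPKM (SD, n = 3). The change was 0.19, with a 95% interval from -0.044 to 0.43 and an adjusted p of 0.275 (limma). It was 0.059 after quantile normalization, 0.070 with the slope with gene length removed and 0.30 with each library centred. Its highest wild-type value, 1966 FPKM, lay close below its lowest mutant value, 2023 FPKM. Groups without overlap and higher in the mutant were thus found in 3 of the 7 histone genes (42.9%), against 10.4% of all tested genes, and groups without overlap in either direction in 32.3% of all tested genes. None of the 7 was without overlap and lower, against 21.8% of all tested genes. These shares are over genes of all lengths, and 7 genes are too few to set against them.

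For the genes of H4, the strains overlapped. *hH4-1* stood at 1223, 1224 and 1295 FPKM in mutant libraries, a mean of 1248 ± 41.1 FPKM (SD, n = 3), and its change was -0.055, with a 95% interval from -0.29 to 0.18 (adjusted p = 0.761 from limma). The interval excludes a change of *hH4-1* as large as that fitted for *hH2A*. The sign of this change turned when each library was centred on its median, to 0.0496, while it was -0.21 after quantile normalization and -0.18 with the slope with gene length removed. *hH4-2* stood at 292, 330 and 368 FPKM in mutant libraries, a mean of 330 ± 38.0 FPKM (SD, n = 3). Its change was 0.31, with a 95% interval from -0.012 to 0.62 (adjusted p = 0.208 from limma), so the interval holds both 0 and the change fitted for *hH2A*. Without wild-type library 1, its lowest, the change was 0.20. The sum of both genes was 1565, 1478 and 1654 FPKM in wild-type libraries and 1516, 1555 and 1663 FPKM in mutant libraries, with overlap.

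Neither variant passed the test. *hH2Az* stood at 29.5, 30.8 and 28.8 FPKM in mutant libraries, a mean of 29.7 ± 0.967 FPKM (SD, n = 3), within the range of the wild-type libraries. Its change was 0.011, with a 95% interval from -0.28 to 0.30 (adjusted p = 0.964 from limma). *cenH3* stood at 32.2, 31.5 and 27.8 FPKM in mutant libraries, a mean of 30.5 ± 2.36 FPKM (SD, n = 3), and its change was 0.17, with a 95% interval from -0.14 to 0.49 (adjusted p = 0.459 from limma). It was 0.10 without wild-type library 2, 0.27 without wild-type library 3, 0.090 with the slope with gene length removed and 0.28 with each library centred. From the estimated depth, *cenH3* rested on about 200.2 to 437 fragments in a library, so that counting alone gives an error of up to 7.07%. *hH4-2* rested on about 1846 to 4415 fragments, with a counting error of at most 2.33%, while its coefficient of variation between libraries was 16.2% in the wild type and 11.5% in the mutant.

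As a group, 6 of the 7 histone genes had a change above 0, with a median of 0.19, while 39.9% of all tested genes did, with a median of -0.095. With each library centred on its median, 7 of 7 and 51.4% of all tested genes did, with medians of 0.30 and 0.010. The histone genes are too few to set against these shares. The histone genes range from 1248 to 1840 bases in span, apart from *hH2Az*, and short genes as a class lay higher than the rest. Among the 1442 shortest tested genes, with spans of at most 1610 bases, the median change was 0.12, and the 10th and 90th percentiles were -0.58 and 0.64. Each histone gene was therefore set beside the 200 other tested genes nearest to it in span. *hH2A* lay at 0.60 where the median of its 200 neighbours in length was 0.14 and their 90th percentile 0.70, and 14.5% of them had a larger change. For *hH2B* 17% of the 200 had a larger change, for *hH4-2* 16.5%, for *cenH3* 37%, for *hH3* 40.5% and for *hH4-1* 67%. *hH2Az* had a change near 0 but a span of 5173 bases, and the 200 genes of like span had a median of -0.34, so that 8.5% of them had a larger change. Span is the length of the gene on the chromosome and not of its transcripts, and that of *hH2Az* holds another annotated gene whole. Beside the 1442 shortest genes, with a median of 0.12, the change of *hH2Az* was lower, so its place depends on the genes chosen. When the slope with gene length was removed from each library, the change of *hH2A* was 0.45 (adjusted p = 0.0661 from limma), and 3.25% of all tested genes passed, 0.957% as higher. When each library was also centred, it was 0.53 (adjusted p = 0.0338 from limma), and 3.4% of all tested genes passed, 1.89% as higher.

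**Figure D3:**
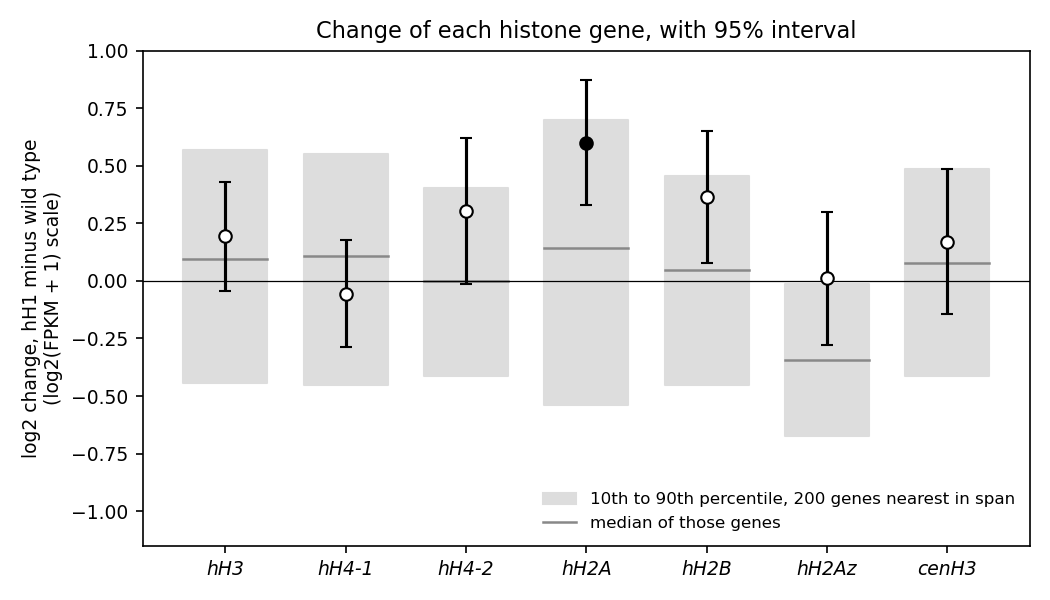
Log2 change of each histone gene (mutant minus wild type) with its 95% interval from limma, filled where the adjusted p was below 0.05, over gray boxes that span the 10th to 90th percentile of the 200 tested genes nearest in gene span, with their median as a line. *hH2A* at 0.60 is the filled point and lies below the top of its box at 0.70, and *hH2Az* at 0.011 lies just above its box.

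Ratios of histone genes within a library do not depend on a single scaling factor per library, but they can move with quantile normalization or a correction for gene length. Of the 6 ratios computed, 4 had no overlap between the strains. The ratios *hH2A* to *hH2B*, *hH2Az* to *hH2A*, and H3 and H4 to H2A and H2B all hold *hH2A*. They are therefore not separate results. No share was computed for ratios of other genes, while 32.3% of all tested genes had no overlap in their level. With 3 libraries in each strain, 0.1 is the smallest p of the two-sided exact permutation test, so that no ratio can pass 0.05. *hH2A* to *hH2B* stood at 0.491, 0.472 and 0.484 in the wild type and 0.572, 0.549 and 0.586 in the mutant. It was 1.18-fold higher in the mutant (exact permutation p = 0.1, adjusted over 6 ratios 0.15), and the SD was 0.00948 in the wild type and 0.0187 in the mutant (n = 3). In the wild type this ratio varied far less between libraries than the level of either gene, and wild-type library 1, low for both genes, was not low in their ratio.

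The ratio of H3 and H4 transcripts to H2A and H2B transcripts was 2.22, 1.74 and 1.72 in the wild type and 1.53, 1.46 and 1.48 in the mutant. It was lower in each mutant library than in each wild-type library, by a factor of 0.793 (exact permutation p = 0.1, adjusted 0.15). The sum of *hH2A* and *hH2B* was 1820 ± 258 FPKM in wild-type libraries and 2462 ± 82.1 FPKM in mutant libraries (SD, n = 3). Wild-type library 1 stood apart from the others in this ratio, but the other wild-type libraries were also above the mutant ones. The log2 difference was -0.33 with all libraries and -0.21 without wild-type library 1.

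*hH2Az* to *hH2A*, the transcripts of the variant and the histone that it replaces, stood at 0.0572, 0.0515 and 0.0427 in the wild type and at 0.0342, 0.0343 and 0.0314 in the mutant, a factor of 0.664 (exact permutation p = 0.1, adjusted 0.15). The means of *hH2Az* itself were 29.5 and 29.7 FPKM. The genes differ in span, 5173 against 1248 bases, and the 200 genes nearest in span had median changes of -0.34 for *hH2Az* and 0.14 for *hH2A*. The fitted changes of *hH2Az* and *hH2A* were 0.011 and 0.60 as reported, 0.072 and 0.45 after quantile normalization, and 0.19 and 0.45 with the slope with gene length removed, where they lie closer together. *cenH3* to *hH3* was 0.0142, 0.0124 and 0.0181 in the wild type and 0.0152, 0.0148 and 0.0137 in the mutant, with means of 0.0149 and 0.0146 (exact permutation p = 1). *hH3* to the sum of both H4 genes overlapped between strains, with means of 1.17 and 1.33 (exact permutation p = 0.2, adjusted 0.24), and its log2 difference of 0.18 was 0.094 without wild-type library 3 and 0.28 without wild-type library 2.

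Within H4, *hH4-2* held a larger share in each mutant library than in each wild-type library. It made up 14.6%, 17.7% and 19.0% of H4 FPKM in wild-type libraries and 19.3%, 21.2% and 22.1% in the mutant. The highest wild-type and lowest mutant shares were close. The ratio of *hH4-1* to *hH4-2* was 4.92 ± 0.835 in the wild type and 3.80 ± 0.346 in the mutant (SD, n = 3, exact permutation p = 0.1, adjusted 0.15). The log2 difference was -0.36 with all libraries and -0.23 without wild-type library 1. How reads that match both H4 genes were assigned is not stated, so the split between them is less certain than their sum.

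**Figure D4:**
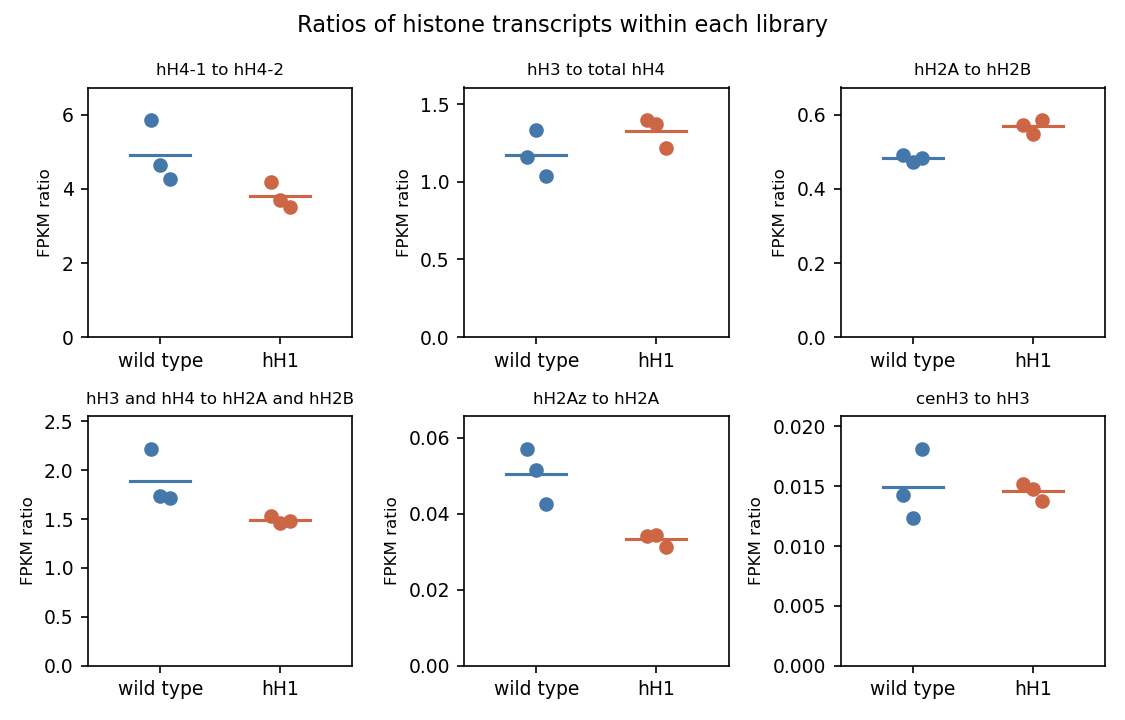
FPKM ratios of histone genes within each library, with wild-type libraries in blue and *hH1* mutant libraries in orange, 1 point per library and a line at the mean of 3, on axes that start at 0. The strains do not overlap for *hH4-1* to *hH4-2*, *hH2A* to *hH2B*, H3 and H4 to H2A and H2B, and *hH2Az* to *hH2A*, and they overlap for *hH3* to total H4 and *cenH3* to *hH3*.

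*hH2Az* was the 1 histone gene with more than 1 annotated transcript. Its summed value varied little between libraries, but its split between transcripts varied. NCU05347T2 held 99.0%, 99.1% and 0.00832% of the gene in the 3 wild-type libraries and 99.0% in each mutant library. In wild-type library 3, 27.2 FPKM were listed under NCU05347T1, which stood at 0.296 FPKM in each of the other 5 libraries, and NCU05347T0 was listed at 0 in all 6. Wild-type library 3 differed in this from the other wild-type libraries as well as from the mutant, so the split does not follow the strain. The value of the gene is therefore given as the sum.

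**Figure D5:**
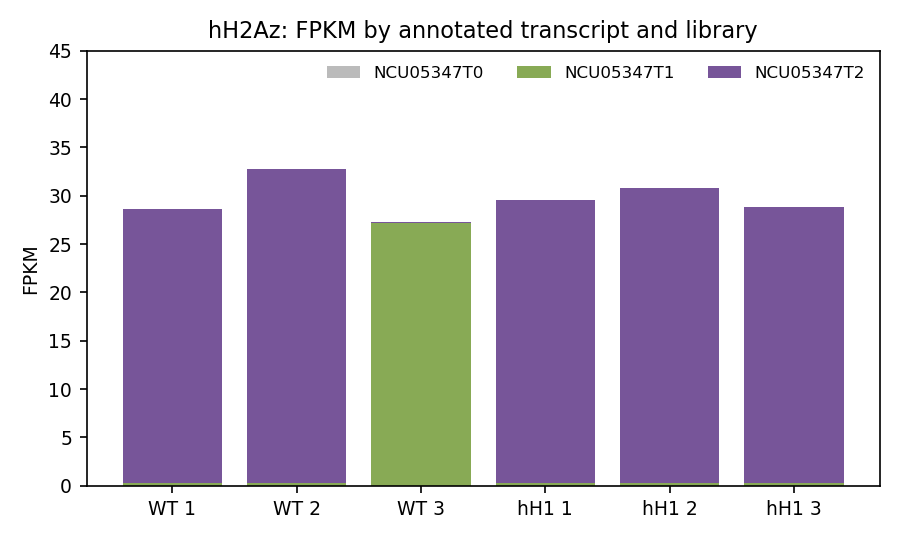
FPKM of the 3 annotated transcripts of *hH2Az*, stacked for each library. The height of the bar lies between 27.2 and 32.7 FPKM in all 6 libraries, while wild-type library 3 is listed almost wholly under NCU05347T1 and the other 5 under NCU05347T2.

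Several histone genes overlap another gene in the annotation, and whether strand was used in the assignment of reads is not stated, although the libraries kept it. *hH2A* shares 369 bases (29.6% of its span) with NCU11258, which stood at 167, 204 and 214 FPKM in wild-type libraries, against 208, 225 and 254 FPKM in mutant libraries, with overlap between strains and a change of 0.23 (adjusted p = 0.284 from limma). *hH2B* shares 483 bases with NCU02434, which was far lower, at 15.6 ± 2.68 FPKM in wild-type libraries and 20.3 ± 2.52 FPKM in mutant libraries (SD, n = 3), without overlap and higher in the mutant, as for *hH2B*, with a change of 0.37 (adjusted p = 0.187 from limma). *hH4-2* shares 167 bases with NCU11174, and *hH2Az* shares 166 bases with NCU05345 and spans NCU05346 whole, which was listed at no more than 0.113 FPKM. Reads in these shared bases may have been assigned to either gene, and their part in the results was not tested. Of the 12 genes next to a histone gene that are not histone genes themselves, 7 were tested. Of these, 0 passed the limma test and 1, NCU02434, had an unadjusted p under 0.05, against 4.99% and 25.9% of all tested genes. Their median change was -0.023, and 7 genes are too few to set against these shares.

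Genes that work with histones were compared from lists of symbols. Of 5 genes matched in a list of histone assembly factors, all were tested, 0 passed the limma test and 0 had an unadjusted p under 0.05. Among all tested genes 4.99% and 25.9% did so, and 5 genes are too few to set against these shares. The median change of the 5 was -0.031 against -0.095 over all tested genes. *asf-1* (NCU09436), a chaperone that hands on H3 and H4, was at 103, 110 and 120 FPKM in wild-type libraries and 134, 123 and 115 FPKM in mutant libraries, with a change of 0.16 (adjusted p = 0.416 from limma). The genes of the chromatin assembly factor 1 complex, which places H3 and H4 on replicated DNA, had changes of -0.042 for *cac-1* (NCU04198), -0.15 for *cac-2* (NCU08357) and 0.048 for *cac-3* (NCU06679). The change of *nap-1* (NCU03815) was -0.031. In a list of DNA replication symbols 4 genes were matched and tested, 0 passed the limma test, and 1 had an unadjusted p under 0.05, where 4.99% and 25.9% of all tested genes did. The median change of these 4 was -0.092. In 2 of the 4, *un-24* and *cdc7*, the strains did not overlap and the mutant was lower, against 21.8% of all tested genes. A list of 4 genes is too short to set against these shares. *pcn* (NCU09239), whose symbol stands for the sliding clamp PCNA, was at 42.2, 45.4 and 46.6 FPKM in wild-type libraries and 39.5, 51.8 and 45.9 FPKM in mutant libraries, a change of 0.025 with a 95% interval from -0.28 to 0.33. *un-24* (NCU03539), the large subunit of ribonucleotide reductase, stood at 51.8, 64.5 and 55.3 FPKM in wild-type libraries and 33.6, 42.9 and 39.5 FPKM in mutant libraries. The change of *un-24* was -0.55, with an adjusted p of 0.0516 (limma). *un-24* has a span of 3913 bases, and the 200 genes nearest in span to *hH2Az*, at 5173 bases, had a median of -0.34. Genes on these lists were not set beside genes of like span, and the part of gene length in their changes was not tested. *rpa-1* (NCU03606) and *cdc7* (NCU11410) had changes of 0.12 and -0.21 (adjusted p = 0.676 and 0.424 from limma).

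Across the 6 libraries, *hH2A* and *hH2B* were the most alike of the histone genes, with a Pearson correlation of 0.963 of log2(FPKM + 1), and *hH3* and *hH4-1* were at -0.83 although they are neighbours. These are descriptions over 6 libraries that share strain and scaling. The genes most like the mean course of the 5 core histone genes, out of 4618 tested genes that averaged 10 FPKM or more, were NCU04504 (correlation 0.998), *por* (NCU04304, 0.996), NCU09911 (0.995), *nuo21* (NCU05221, 0.992) and NCU00443 (0.988). The core genes do not share a single course, since *hH4-1* was at -0.53 with *hH2A* and -0.61 with *hH2B*. Their mean was lower in each wild-type library than in each mutant library. Genes picked for likeness to it are thus higher in the mutant through the picking, and their high correlations are no separate result. *por* encodes the porin of the outer mitochondrial membrane and *nuo21* a subunit of respiratory complex I. *por* stood at 1767 ± 139 FPKM in wild-type libraries and 2124 ± 96.0 FPKM in mutant libraries (SD, n = 3). The 7 histone genes together held 0.898%, 0.965% and 0.940% of all FPKM in wild-type libraries and 0.949%, 0.997% and 0.996% in the mutant (exact permutation p = 0.2). Without *gpd-1* in the totals the mutant shares were 1.01%, 1.05% and 1.05%, and the strains did not overlap (exact permutation p = 0.1, the smallest possible).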

How the data were processed

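Reads of stranded, ribosomal RNA-depleted libraries were aligned by the authors to NC12 with TopHat (TopHat2 2.0.14 in the submitters' processing notes). The deposited values are FPKM per annotated transcript, which the authors made with Cufflinks (Cuffnorm in the processing notes). The scaling between libraries is not stated. The table holds 10785 transcripts in 6 libraries. The other 16 samples of the series were not analysed here.

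FPKM of transcripts were added up to give 9730 genes, of which 9729 were in the RefSeq gene table of NC12. The 7208 genes that averaged 1 FPKM or more were tested as log2(FPKM + 1), which understates changes of low genes. The test was limma 3.58.1 in R 4.3.3 (eBayes with a trend, two-sided, Benjamini-Hochberg, threshold 0.05). Ratios were tested by two-sided exact permutation over 20 labelings. In simulated data of 7208 genes, this limma fit found 63 of 100 genes changed by 1 on the log2 scale. It found 97 of 100 genes changed by 2, with 4.19% of calls false. How often a change of 0.60, that of *hH2A*, is found was not tested. Whether these shares hold for the measured libraries was not tested. Depth was chosen so that low values came out within 0.1 of whole fragments. Of 184 transcripts, only 9 to 24 in a library had values low enough to be used, so the depths are rough. The fit also chose the 205 bases that were subtracted from each exon length. These lengths came from the study's annotation, held here only in part. The estimate holds if the scaling used the total of each library. Intervals from fragments cover counting error only. Python 3.11.15, pandas 2.3.3 and scipy 1.17.1 did the rest.

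The members, lists and tests were chosen with earlier results of these data known. Genes named are the 7 members, *hH1*, other symbols beginning with hH, the lists of histone assembly, DNA replication and conidiation symbols, *matA-1*, the next gene on each side of a member, and the 5 genes most alike. *gpd-1* is named for its weight in the totals. Alternatives were the pseudocount, the filter, single transcripts, scaling, the slope with gene length, the variance model and leaving out each library. Centring together with removal of the slope was added after the data were seen.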

Additional observations from a re-analysis of the deposited data

How the results depend on the processing

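Of all tested genes 360 were called, 125 higher and 235 lower in the mutant, which became 281 and 140 when each library was centred, which moved the median change of the tested genes from -0.095 to 0.010. They became 158 and 173 after quantile normalization, and 136 and 109 with centring and removal of the slope. The count was 188 without a filter (8636 genes not at 0 in all 6 libraries), 234 with the slope with gene length removed, 135 without a variance trend and 45 with each transcript on its own, and ranged from 29 (without wild-type library 1) to 372 across the fits that left out 1 library. It was 111 without mutant library 2, 119 without wild-type library 2, 135 without mutant library 3 and 217 without mutant library 1. The cause was not tested. The number of histone genes called was 0 to 1 across these fits, and was 0 after quantile normalization, with the slope removed, without a variance trend and with each transcript on its own, where the change of *hH2A* was 0.45 (adjusted p = 0.0552 from limma), 0.45 (0.0661), 0.60 (0.0814) and 0.60 (0.0703). Leaving out 1 library gave 0.49 to 0.66 for *hH2A*. The change of *hH4-1* turned from -0.055 to 0.0496 with each library centred, and that of *hH2Az* to -0.0080 without wild-type library 1, to -0.0436 without wild-type library 3 and to -0.0133 without mutant library 2. The fits without 1 library gave -0.0436 to 0.0851 for *hH2Az*. With the main transcript in place of the gene, the log2 ratio of *hH2Az* to *hH2A* went from -0.59 to 3.92, because wild-type library 3 is listed under the other transcript. The strain difference in the share of all FPKM was 0.0460 percentage points and 0.0988 without *gpd-1*, and 0.0278 to 0.0620 across the fits that left out 1 library. *cenH3* rested on about 200.2 to 437 estimated fragments a library, and the part of depth in its spread was not tested. No value here separates the strain from a mating type or other background that differs with it. No paired analysis was possible because the columns of the table do not carry the replicate numbers of the labels.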

Other observations

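NCU05347T1, the minor transcript of *hH2Az*, was listed between 0.2956 and 0.2959 FPKM in 5 libraries whose estimated depths ranged from 5720000 to 9120000 fragments, and at 27.2 FPKM in wild-type library 3. The near-equal values were noticed after the data were seen, and the cause was not tested. *hH1* itself has 2 annotated transcripts. NCU06863T0 held 97.8% to 99.1% of the gene in the wild type and was at 0.00918, 0.353 and 0 FPKM in the mutant libraries, while NCU06863T1 held 4.45, 3.01 and 6.37 FPKM in wild-type libraries, against 9.34, 1.71 and 3.22 FPKM in mutant ones.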
